A study of Mus musculus with 24 samples.

Results

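Gene expression in interscapular brown fat lacking Hdac3 was compared between mice kept at 22 °C and mice 7 d after a short cold exposure, in 4 libraries per group. The comparison covered 11190 genes with an authors' mean of at least 1 RPKM (reads normalised to gene length and to library size) in either group, out of 12225 genes listed by both tables that hold these groups and 13162 genes in any deposited table. Each gene was described by the log2 ratio of the authors' mean after 7 d of recovery to their mean at 22 °C, centred on the median over the joined genes. A gene was called higher or lower at a 2-fold ratio. The deposited files hold group means and no library values or test for this pair, so no spread between replicates stands behind a ratio, and "higher" or "lower" describes the means alone.

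The mice were males on a C57BL/6J background, aged 10 to 12 weeks, killed at ZT10. The KO mice carried floxed Hdac3 and a Cre recombinase under the Ucp1 promoter, and the Control mice carried floxed Hdac3 without the Cre. The KO group at 22 °C stayed in standard housing, while the KO group of the recovery arm spent 24 h at 15 °C and then 7 d at 22 °C. Control groups went through the same housing, and a further pair of groups, sampled after 24 h of recovery, supplied the values quoted for that time, within a series of 24 libraries. The Ucp1-driven Cre acts in brown adipocytes, so endothelial, stromal and immune cells of the pad keep the gene. The labels speak of biological replicates but do not tie each library to a separate animal, and deposited p-values therefore measure the spread between libraries.

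Brown fat turns stored fuel into heat. Its adipocytes burn fatty acids and glucose in dense mitochondria, and the uncoupling protein UCP1 lets protons back across the inner membrane without making ATP. Noradrenaline from sympathetic nerves drives this through beta-adrenergic receptors and cyclic AMP. HDAC3 is a histone deacetylase held in the NCOR and SMRT corepressor complexes, and in brown fat it has also been described as a coactivator of estrogen-related receptor alpha (ERRα), a nuclear receptor that drives mitochondrial genes.

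The KO libraries held 8480000 to 9830000 reads at 22 °C and 7110000 to 10400000 at 7 d, as rounded values. These totals were worked out from the single-read steps in the means. Genes listed in the tables took 65.5% of these reads at 22 °C and 75.6% at 7 d, against 66.2% and 71.8% in Control. The targeted gene was low in both KO groups. The KO mean of Hdac3 was 8.57 RPKM at 22 °C, where Control had 26.1 (adjusted p = 9.9e-21 in the authors' deposited table, edgeR), and 7.43 RPKM at 7 d, where Control had 25.4 (adjusted p = 6.4e-29, same source). The centred KO log2 ratio of Hdac3 itself was -0.25. Cidea, a lipid droplet protein of brown fat, had an authors' mean of 433 RPKM in the KO at 22 °C, against 1365 in Control. The deposited KO value of Cidea was 2.68-fold lower (adjusted p = 1.1e-16, edgeR). Pparg, the adipocyte nuclear receptor, stood at 158 RPKM in KO and 169 in Control. Ucp1 stood at 32.8 RPKM in KO and 1607 in Control, and Cox7a1 at 56.4 and 924.

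After 7 d of recovery 849 of 11179 genes with a ratio (7.59%) had at least 2-fold higher KO means than at 22 °C, and 664 (5.94%) had at least 2-fold lower ones. Ratios of 4-fold or more were found for 137 genes upward and 84 downward, and 60.4% of the genes lay within 0.5 log2 of the centre. In Control over the same interval, 296 of 11319 genes (2.62%) were at least 2-fold higher and 248 (2.19%) at least 2-fold lower. The split depended on the scaling. With the centre set by genes of at least 5 RPKM in both groups the median gene sat 0.12 log2 lower and the KO counts became 664 higher and 863 lower, and with both groups scaled to the same sum it sat 0.16 lower and they became 613 and 941. With 1 RPKM added to both means the counts were 612 and 328. Just past the 2-fold line stood Zfp672 at 1.0002 and Arhgef2 at -1.0008 log2, and just short of it Cdkn1a at 0.9999 and Zbtb4 at -0.9997.

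**Figure D1:**
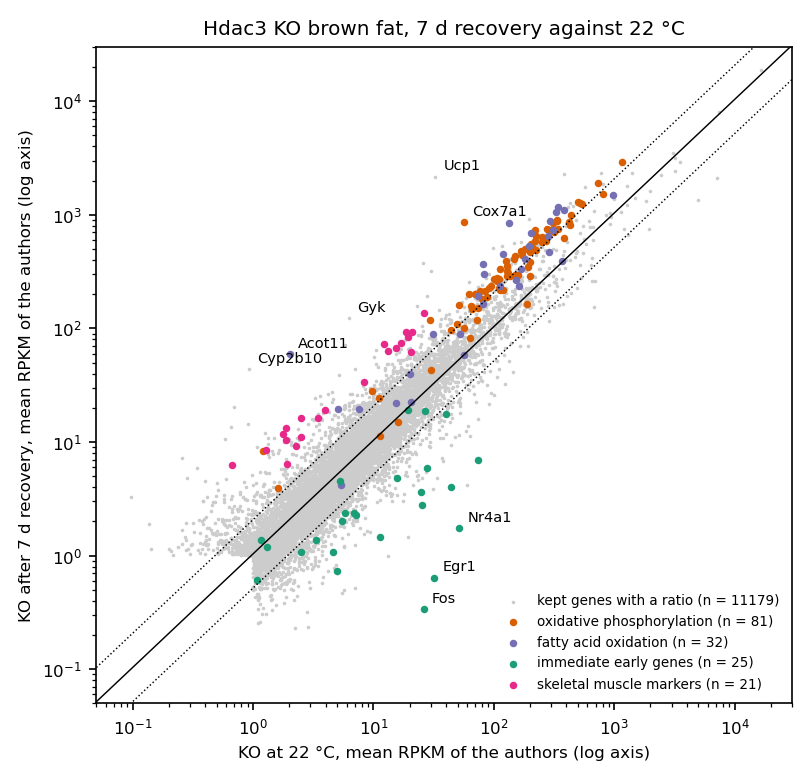
Authors' mean RPKM of each gene in the KO group at 22 °C (x axis, log scale) and after 7 d of recovery (y axis, log scale), with the solid line at the median ratio and dotted lines at 2-fold on either side. Coloured points mark gene lists. Oxidative phosphorylation genes, at a median centred ratio of 1.24 log2, lie above the line, immediate early genes, at -1.72, lie below it, and Ucp1 lies far above it, at 32.8 and 2163 RPKM.

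Thermogenic genes were among those with the highest ratios. Ucp1 went from 32.8 RPKM at 22 °C in the KO to 3884 after 24 h and 2163 after 7 d of recovery, a centred 63.9-fold ratio between 7 d and 22 °C. The Control means of Ucp1 were 1607, 4966 and 2948 RPKM at the same points, so the KO mean at 7 d exceeded the Control mean at 22 °C. Deposited KO over Control values for Ucp1 were 41.9-fold lower at 22 °C (adjusted p = 4.2e-33, edgeR) and 1.3-fold lower at 7 d (adjusted p = 0.578).

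Of 26 thermogenic genes with a ratio, 17 were at least 2-fold higher in the KO at 7 d and 1 was lower, with a median of 1.65 log2 against 0.21 for the same genes in Control. Acot11, a thioesterase that splits acyl-CoA, went from 2.03 RPKM to 59.3 (28.3-fold). Gyk, the glycerol kinase that lets brown fat reuse glycerol, went from 6.23 to 122 RPKM (19-fold). Cox7a1, a cytochrome oxidase subunit typical of oxidative tissue, went from 56.4 to 863 RPKM (14.8-fold). These KO means had already been near their 7 d level after 24 h of recovery for Acot11 (62.3 RPKM) and Cox7a1 (881 RPKM), while that of Gyk was 246 RPKM at 24 h. Fabp3, a fatty acid carrier of oxidative tissue, went from 26 through 986 to 373 RPKM, and its Control mean went the other way, from 567 RPKM at 22 °C to 277 at 7 d. Letmd1, a mitochondrial protein needed for brown fat thermogenesis, went from 22.9 to 158 RPKM, and Otop1, a proton channel of brown fat, from 10.1 to 55.6. The lower member was Nnat, neuronatin, at 19.3 and 1.47 RPKM in KO and 20.8 and 3.6 in Control.

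The list was not uniform. Adrb3, the beta-adrenergic receptor typical of adipocytes, had KO means of 56 and 44.8 RPKM and was above Control in the deposited tables both at 22 °C (3.13-fold, adjusted p = 1.8e-10, edgeR) and at 7 d (1.57-fold, adjusted p = 0.0424). Ppargc1a, the coactivator that drives mitochondrial biogenesis, stood at 2.64 RPKM in KO at 22 °C and 3.73 at 7 d. Elovl3, which lengthens fatty acids and responds to cold, was 10.2-fold higher in the KO at 7 d, from 30.2 to 320 RPKM, and 13.9-fold higher in Control, from 3.57 to 45.9 RPKM. The deposited tables placed Elovl3 higher in KO than in Control at both times, by 9.5-fold (adjusted p = 4.5e-09, edgeR) and 7.32-fold (adjusted p = 5.3e-07). Outside the list, Cyp2b10, a cytochrome P450 that metabolises xenobiotics and steroids, was 45.5-fold higher in the KO, from 0.93 to 43.7 RPKM. Control stood at 5.45 and 5.11 RPKM. Cyp2b10 went from 4.92-fold below Control at 22 °C (adjusted p = 9.0e-05, edgeR) to 8.85-fold above it at 7 d (adjusted p = 7.6e-08) in the deposited tables.

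**Figure D2:**
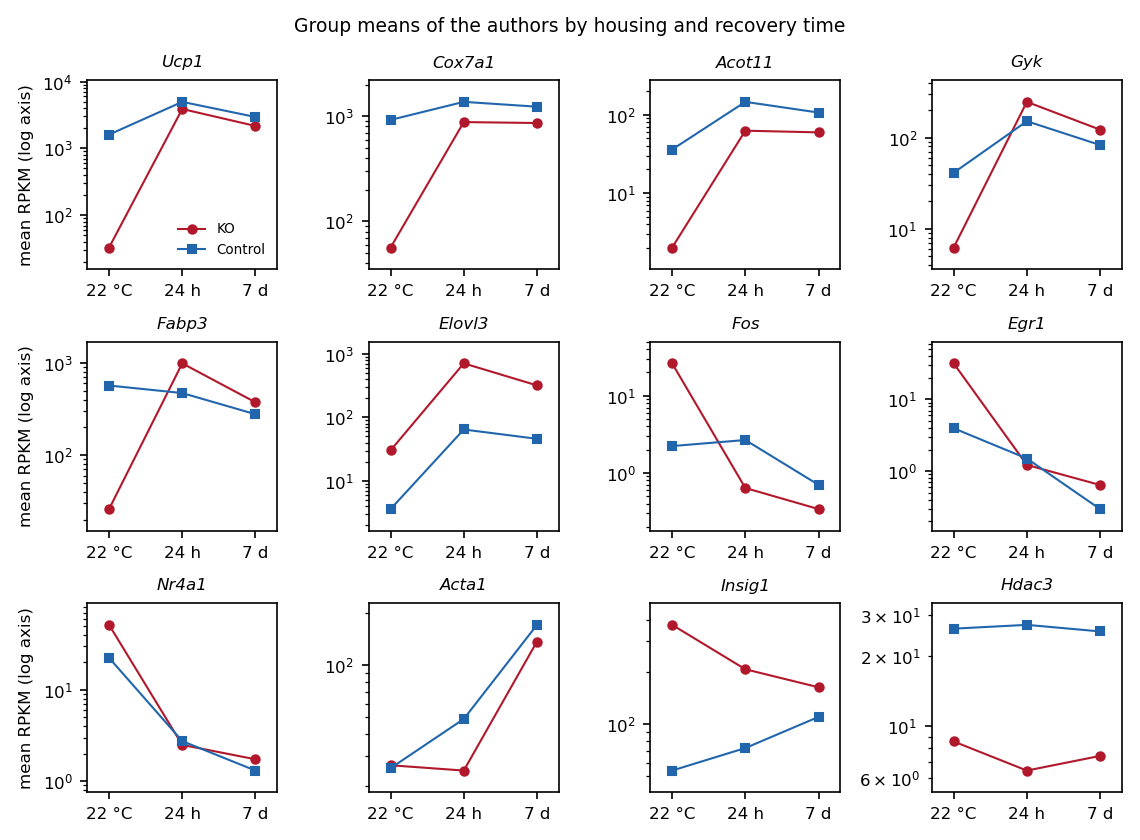
Authors' mean RPKM (y axes, log scale, differing between panels) for 12 genes at 22 °C, after 24 h and after 7 d of recovery, with KO in red circles and Control in blue squares, each point the mean of 4 libraries with no error deposited. Ucp1 and Cox7a1 in the KO sit near the Control level at 7 d, Acot11 stands at 59.3 RPKM against 106 in Control, Fos and Egr1 sit lowest at 7 d, and Acta1 is high at 7 d in both genotypes.

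Nuclear genes of the respiratory chain were higher together. Of 81 oxidative phosphorylation genes, 61 had at least 2-fold higher KO means at 7 d and none had 2-fold lower ones, with a median of 1.24 log2 and a range from -0.24 to 3.89. In Control the median was 0.30, with 2 of 81 genes at least 2-fold higher. The authors' deposited tables, which rest on the same KO libraries as these ratios, gave 77 of the 81 as lower in KO than in Control at 22 °C and 2 as higher, among all genes 18.0% lower and 16.3% higher. At 7 d they gave 6 as lower and 1 as higher, among all genes 6.14% and 9.18%.

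The complexes had similar medians. Complex I, which feeds electrons from NADH, had 28 of 37 subunits past 2-fold at a median of 1.26 log2, from Ndufa7 (0.66) to Ndufv2 (1.63). All 4 subunits of complex II and all 9 of complex III were past 2-fold, at medians of 1.32 and 1.36. Complex IV, cytochrome c oxidase, had 9 of 14 past 2-fold, with Cox8a at 0.66 and Cox7a1 at 3.89. The ATP synthase group had 10 of 16. The 6 others were the gene copies of the membrane ring subunit c, with Atp5g1 at -0.13, Atp5g2 at 0.46 and Atp5g3 at -0.24, the subunits Atp5c1 at 0.48 and Atp5j at 0.32, and the inhibitor Atpif1 at -0.07. Cycs, cytochrome c, went from 29.4 to 119 RPKM in the KO, a centred ratio of 1.96 log2.

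Pathways that feed the chain had similar medians. Of 34 pyruvate and TCA cycle genes, 22 were at least 2-fold higher and none lower (median 1.21, Control 0.30). Sucla2 and Suclg1, subunits of succinyl-CoA ligase, had KO means of 195 and 923 RPKM and of 116 and 532 RPKM. Pdk1, a kinase that switches pyruvate dehydrogenase off, stood apart at -0.53 log2. Of 32 fatty acid oxidation genes, 19 were at least 2-fold higher and none lower (median 1.19, Control 0.24). Acaa2, the thiolase of the last step, went from 134 RPKM at 22 °C to 851 at 7 d, and Cpt1b, which carries fatty acids toward the mitochondrion, from 81 to 366 RPKM. The peroxisomal thiolases differed, with Acaa1a at a ratio of 0.01 log2 and Acaa1b at 1.90 in KO and 1.49 in Control. Cpt1a, the liver form of the carnitine transferase, had a KO ratio of -0.44. The mitochondrial ribosome had 37 of 76 genes past 2-fold and a median of 0.99 (Control 0.32). That median was 1.04 without centring. It sat 0.12 log2 below 0.99 under the centre from genes of at least 5 RPKM, and 0.16 below it under the equal sum. None of 79 cytosolic ribosome genes passed 2-fold in either direction, within a range from -0.45 to 0.58.

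Transcription factors of these pathways differed among themselves. Esrra, which encodes ERRα, went from 18.3 to 42.7 RPKM and Esrrg, its relative, from 0.993 to 4.22 RPKM. Perm1, a muscle and brown fat regulator that acts with PGC-1 and ERR, went from 0.259 RPKM to 7.23, resting on 9.2 and 246 reads per library. Polrmt, the mitochondrial RNA polymerase, went from 2.79 to 8.06 RPKM. Nrip1, a corepressor of mitochondrial genes in fat, was lower, at 18.1 and 8.03 RPKM. Nrf1, a further factor of mitochondrial genes, had a ratio of -0.31 log2. Ppara, the receptor that drives fat oxidation, had one of 0.68 in the KO and -1.07 in Control.

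The ERR motif AAGGTCA was searched in promoters of these genes, since ERRα binds it. The window ran from 250 bases before to 50 after the annotated start in the RefSeq promoters (GRCm38.p6, not the build of the deposited tables), on both strands and whether or not it overlapped another motif. It was found in 9 of 73 promoters of oxidative phosphorylation genes (12.3%), 2 of 30 for fatty acid oxidation (6.67%), 2 of 41 for the TCA cycle (4.88%), 4 of 73 for the mitochondrial ribosome (5.48%), 2 of 28 for the thermogenic list (7.14%) and 1550 of all 32851 (4.72%). Genes with the motif were not all higher. The 9 oxidative phosphorylation genes included Atp5g3, at -0.24 log2, and Atpif1, both short of 2-fold in the KO. A match is a string of letters, and binding was not measured. The 250 bases before the start are shown, 5′ to 3′ on the gene's strand with the motif or its reverse complement in capitals, for a beta-oxidation enzyme and a complex I subunit whose KO means were over 2-fold higher at 7 d: Acadm, medium-chain acyl-CoA dehydrogenase, at chr3:153944644-153944893 on the minus strand, went from 339 to 1180 RPKM, and Ndufb2, at chr6:39592315-39592564 on the plus strand, from 65 to 158 RPKM.
Acadm: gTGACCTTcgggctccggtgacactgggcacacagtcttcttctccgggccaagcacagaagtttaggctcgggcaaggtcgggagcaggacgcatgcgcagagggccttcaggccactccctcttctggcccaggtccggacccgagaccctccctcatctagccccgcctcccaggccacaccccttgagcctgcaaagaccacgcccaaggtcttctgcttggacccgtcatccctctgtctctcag
Ndufb2: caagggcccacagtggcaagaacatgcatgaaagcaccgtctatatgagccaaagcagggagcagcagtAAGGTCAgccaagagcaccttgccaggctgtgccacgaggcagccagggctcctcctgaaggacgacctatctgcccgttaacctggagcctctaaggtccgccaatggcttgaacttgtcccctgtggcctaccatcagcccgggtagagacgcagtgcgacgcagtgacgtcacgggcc

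Skeletal muscle transcripts were also higher at 7 d, in both genotypes. All 21 muscle markers were at least 2-fold higher in KO at 7 d (median 2.23 log2, range 1.55 to 3.20) and in Control (median 2.68), and their summed mean went from 196.4 RPKM through 194.3 at 24 h to 911 at 7 d in KO, and from 217.2 through 341.2 to 1099 in Control. Acta1, skeletal muscle actin, stood at 26.5, 24.7 and 137 RPKM in KO. None of the 21 passed the authors' threshold between KO and Control at 22 °C or at 7 d, and none between 22 °C and 24 h in KO. Muscle also expresses respiratory chain genes. In Control, where the muscle sum at 7 d was 1099 RPKM, the oxidative phosphorylation median was 0.30. At 24 h, where the KO muscle sum was 194.3 RPKM, the authors' deposited table (adjusted p under 0.05, edgeR, with 22.1% of all genes higher and 19.8% lower) gave 75 of 81 oxidative phosphorylation genes as higher than at 22 °C, at a median of 1.22. The part of muscle in the oxidative values at 7 d was not tested. Cox6a2, the muscle form of a cytochrome oxidase subunit, went with the muscle genes, at 1.2, 2.08 and 8.4 RPKM in KO and 2.49 log2 in Control. Without the 21 muscle markers, 828 genes were higher and 664 lower in the KO.

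**Figure D3:**
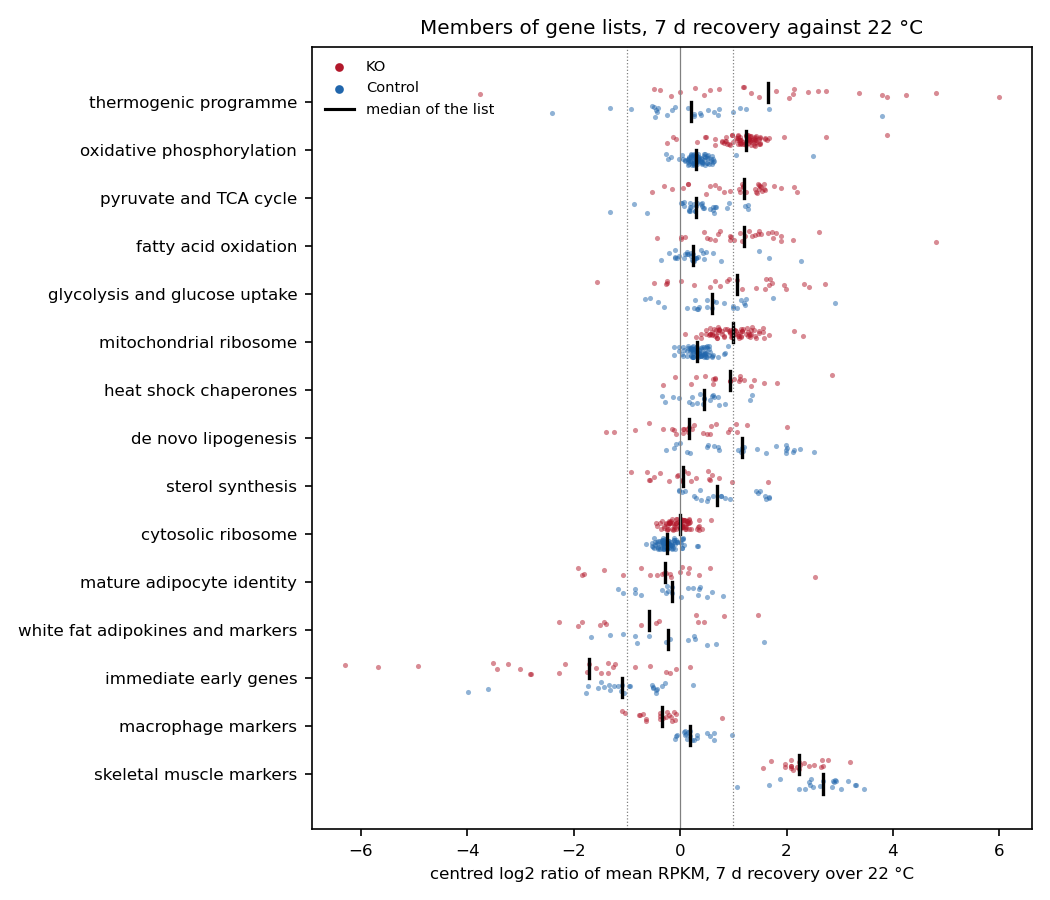
Centred log2 ratio of mean RPKM at 7 d of recovery to 22 °C (x axis) for the members of 15 gene lists, with 1 point per gene, KO in red above Control in blue, black bars at each list's median and dotted lines at 2-fold. Oxidative phosphorylation sits at 1.24 in KO and 0.30 in Control, de novo lipogenesis at 0.16 and 1.17, and skeletal muscle at 2.23 and 2.68.

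Glucose-handling genes were higher in the KO, and in part in Control too. Of 25 glycolysis and glucose uptake genes, 13 were at least 2-fold higher and 1 lower, at a median of 1.06 log2 (0.93 and 0.89 under the other centre and the equal sum) and 0.60 in Control, with 8 genes past 2-fold there. Pkm, pyruvate kinase, went from 98.4 to 510 RPKM, Pfkl, a phosphofructokinase, from 25.5 to 105, and Ldhb, the lactate dehydrogenase subunit of oxidative tissue, from 28 to 193. The muscle phosphoglycerate mutase Pgam2, at 2.34 and 12.9 RPKM, went with the muscle markers, and its Control ratio was 2.92. Slc2a3, a glucose transporter, was the member at least 2-fold lower, at 2.21 and 0.772 RPKM. The part of muscle in the glycolytic values was not tested.

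Glycogen genes had 8 of 20 members at least 2-fold higher and 1 lower in the KO, at a median of 0.53 log2. In Control 5 of 20 were at least 2-fold higher and none lower, at a median of 0.41. Counted as higher in both genotypes was Pygm, the muscle glycogen phosphorylase, which went with the muscle markers. Its KO means were 3.51 and 12.7 RPKM, and its Control ratio was 2.14 log2. Ppp1r3c, which brings a phosphatase to glycogen and favours its synthesis, was 12-fold higher in the KO, at 5.82, 27.3 and 71.8 RPKM at 22 °C, 24 h and 7 d. Its Control means were 43.4 and 71.5 RPKM at 22 °C and 7 d. Gys2, the glycogen synthase known from liver, went from 4.57 to 27.7 RPKM in the KO and from 14.6 to 27.7 in Control. Pygb, a glycogen phosphorylase, was lower in the KO, at 79.2 and 34.5 RPKM. Among creatine and calcium cycling genes, the 4 of 10 past 2-fold were the muscle genes Ckm, Ckmt2 and Atp2a1, with Control ratios from 2.46 to 2.72, and the phosphatase Alpl, at 2.7 and 6.96 RPKM with a Control ratio of 0.18.

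Fatty acid synthesis differed from the oxidative genes. De novo lipogenesis had 4 of 27 genes at least 2-fold higher and 2 lower in the KO, with a median of 0.16 log2 (0.04 and 0.00 under the other centre and the equal sum), whereas 16 of 27 were at least 2-fold higher in Control, at a median of 1.17. Fasn, fatty acid synthase, had KO means of 3219, 2023 and 3159 RPKM at 22 °C, 24 h and 7 d and Control means of 642, 2429 and 3378. The KO at 22 °C stood near the level that Control had at 7 d. Me1, malic enzyme, stood at 210 and 292 RPKM in KO and 33.6 and 137 in Control. The deposited tables gave 17 of the 27 as higher in KO than in Control at 22 °C and 1 as lower, and 5 as higher and 3 as lower at 7 d. The shares of all genes were 16.3% higher and 18.0% lower at 22 °C, and 9.18% and 6.14% at 7 d. From 22 °C to 7 d, 7.59% of all genes were at least 2-fold higher and 5.94% lower in KO, and 2.62% were higher in Control.

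The 4 genes past 2-fold upward were Acss1, Tkt, Acly and Pgd, and the 2 downward were Insig1 and Fads1. Acly, which makes cytosolic acetyl-CoA from citrate, had KO means of 248 and 538 RPKM and Control means of 191 and 847. Pgd, of the pentose phosphate pathway, had a KO ratio of 1.05 log2 and a Control ratio of 1.99. Fads1, a fatty acid desaturase, went from 8.04 to 3.17 RPKM in the KO. Acss1, which activates acetate in mitochondria, went from 11 to 45.5 RPKM in the KO and had a Control ratio of -0.07 log2. Tkt, transketolase, went from 508 to 1248 RPKM in the KO, with like ratios in the genotypes (1.25 and 1.20). Insig1, which holds SREBP factors in the endoplasmic reticulum, was lower in the KO at 7 d, at 373, 207 and 163 RPKM over the 3 times, and its Control means were 54 and 110. Srebf1, the lipogenic transcription factor, was short of 2-fold, at 165 and 95 RPKM in KO and 68.3 and 89.2 in Control. Of 22 sterol synthesis genes, 1 was at least 2-fold higher in the KO and none lower, against 7 higher in Control. The shares of all genes were 7.59% higher and 5.94% lower in KO, and 2.62% higher in Control. The KO median of the sterol genes, 0.06 log2, turned to -0.07 and -0.10 under the other centre and the equal sum. Sc5d, a desaturase of late cholesterol synthesis, had KO means of 58.8 and 32.1 RPKM and Control means of 16.3 and 22.9.

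Glycerol and triglyceride genes were divided. Besides Gyk, the glycerol phosphate dehydrogenases Gpd1, at 385 and 2307 RPKM, and Gpd2, at 42.2 and 134, were higher in the KO at 7 d. Agpat9, an acyltransferase of the first step, was lower in KO (51.5 and 23.6 RPKM) and in Control (17.9 and 6.25 RPKM). Dgat2, which makes the final ester bond, had KO means of 994 and 1390 RPKM. Of 21 lipolysis and lipid droplet genes, 4 were at least 2-fold higher, among them Cidea (433 and 1259 RPKM) and the lysosomal lipase Lipa (15.4 and 42), and 1, the droplet coat gene Plin4 (286 and 115), was lower. Control means of Plin4 were 218 and 113 RPKM. The shares of all genes with a ratio were 7.59% at least 2-fold higher and 5.94% lower in the KO.

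Immediate early genes, rapidly induced by a stimulus without new protein synthesis, had the lowest median ratio of the 48 lists. Of 25 with a ratio, 19 were at least 2-fold lower in the KO at 7 d and none higher, at a median of -1.72 log2, and in Control 14 were lower, at -1.09. Fos, a subunit of the AP-1 factor, went from 26.1 RPKM at 22 °C through 0.637 at 24 h to 0.34 at 7 d in the KO, a 79.5-fold lower mean that rests on 506 reads per library at 22 °C and 6.3 at 7 d. Control means of Fos were 2.22, 2.66 and 0.7 RPKM. The early growth response factor Egr1 went from 31.8 to 0.641 RPKM in KO (51.3-fold lower) and from 3.96 to 0.296 in Control. Nr4a1, an orphan nuclear receptor that cyclic AMP induces, went from 51.4 to 1.74 RPKM in KO (30.5-fold lower) and from 22.4 to 1.31 in Control (15.8-fold lower). Those low means were already reached at 24 h in the KO for Nr4a1 (2.5 RPKM). A further 9 of the 34 listed genes were not joined. Egr2 and Egr3 were listed by the 22 °C table alone, with KO means of 4.88 and 4.09 RPKM, as was Arc, a gene of the same kind, at 6.09 RPKM.

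The 6 genes within 2-fold were Klf6 (19.3 and 18.9 RPKM), Jund (5.24 and 4.52), Dusp1 (26.6 and 18.6), Socs3 (1.32 and 1.19), Ctgf (1.07 and 0.613) and Myc (1.17 and 1.37). By edgeR in the deposited tables, 15 of the 25 were higher in KO than in Control at 22 °C and none lower, and at 7 d 3 were higher and none lower. Among all genes, 16.3% were higher and 18.0% lower at 22 °C, and 9.18% and 6.14% at 7 d. The cAMP response element TGACGTCA was present in 3 of 32 promoters of these genes (9.38%, Btg2, Dusp1 and Maff) and in 588 of all 32851 (1.79%), by the same search. Btg2 and Maff had KO ratios of -3.45 and -2.17 log2, while Dusp1 stood at -0.57. Btg2, an antiproliferative early gene, went from 73.9 RPKM through 6.56 to 6.97 in the KO and from 13.2 to 4.79 in Control. Its 250 bases before the start, at chr1:134079156-134079405 on the minus strand in GRCm38.p6, carry the element in capitals.
Btg2: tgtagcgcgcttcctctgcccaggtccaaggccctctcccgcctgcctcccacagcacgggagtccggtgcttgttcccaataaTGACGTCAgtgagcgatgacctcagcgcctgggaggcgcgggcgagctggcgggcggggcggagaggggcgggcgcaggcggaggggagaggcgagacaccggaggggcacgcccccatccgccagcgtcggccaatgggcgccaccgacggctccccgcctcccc

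Adrenergic and hormone signalling genes were divided. A pair of adenylyl cyclases, which make cyclic AMP, went apart. Adcy3 went from 34.9 to 145 RPKM and Adcy5 from 13.5 to 4.22 RPKM in the KO, and Control stood at 33 and 66.9 RPKM for Adcy3 and 2.3 and 1.94 for Adcy5. Sik1, a kinase induced by cyclic AMP, was lower in both genotypes, at 15.7 and 3.39 RPKM in KO and 6.88 and 3.04 in Control. Dio2, the deiodinase that makes active thyroid hormone, went from 7.03 to 44 RPKM in the KO and from 11.5 to 25.1 in Control. Insulin signalling included Irs2, an adaptor of the insulin receptor, at 17.6 and 3.01 RPKM in KO, and the growth factor Igf1, at 11.3 and 3.08. Control means were 11.5 and 3.41 RPKM for Irs2 and 3.93 and 5.32 for Igf1.

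Other genes with large ratios belonged to several pathways. Mfsd2a, a lysophospholipid carrier that fasting and cold induce, went from 0.908 to 14.4 RPKM in the KO and from 0.477 to 4.66 in Control. St3gal5, a sialyltransferase that begins ganglioside synthesis, went from 1.32 to 10.9 RPKM in the KO, with Control at 7 and 6.85. Pnldc1, a nuclease of small RNA ends, went from 1.25 to 11.9 RPKM in the KO and from 8.47 to 5.11 in Control. Downward, Apcdd1, a Wnt inhibitor, had KO means of 13.2 and 1 RPKM and was lower in Control as well, at 5.17 and 0.867 RPKM.

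Chaperones, which fold proteins, had 10 of 21 genes at least 2-fold higher in the KO and none lower (median 0.93 log2, Control 0.45). Hsph1, a large cytosolic heat shock protein, went from 3.3 RPKM at 22 °C through 9.52 at 24 h to 24.5 at 7 d, and Control from 5.43 to 12.4. Hsp90aa1 went from 25.8 to 94.9 RPKM and the mitochondrial chaperone Hspd1 from 138 to 370. At 7 d the deposited table placed 8 of the 21 higher in KO than in Control and none lower, against 9.18% and 6.14% of all genes. Proteasome genes had a median of 0.37, with Psmb5 at 1.13 and Psmc4 at 1.06, while Psmb9, a catalytic subunit of the immunoproteasome, was past 2-fold downward at -1.38. The other catalytic subunits of that form stood short of 2-fold, Psmb8 at -0.87 and Psmb10 at -0.53. The deposited tables placed 20 of 39 proteasome genes higher in KO than in Control at 22 °C, 28 at 7 d, and none lower at either time. Of all genes, 16.3% were higher at 22 °C and 9.18% at 7 d.

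White fat and mature adipocyte genes leaned downward. Of 14 genes of the white fat list, 6 were at least 2-fold lower and 1 higher, at a median of -0.59 log2 (Control -0.23). As drawn up, that list also named Slc36a2, P2rx5, Tmem26 and Tnfrsf9, known from brown or beige fat, and Trim63, known from muscle. Its values may therefore not describe white fat genes alone. Of 20 mature adipocyte genes, 5 were lower and 1 higher, at -0.28 (Control -0.16). The shares of all genes with a ratio were 5.94% lower and 7.59% higher. The lists share members. Cfd, adipsin, went from 4947 to 1346 RPKM in KO and from 1846 to 954 in Control. Car3, a carbonic anhydrase of fat, went from 7086 to 2106 RPKM in KO and from 3250 to 2577 in Control. Retn, resistin, went from 145 to 41.5 RPKM in KO and from 27.6 to 35.9 in Control. Lep, leptin, went from 69.1 through 10.3 to 26.5 RPKM in KO and from 25.5 through 3.71 to 11.2 in Control. The most abundant of these transcripts did not follow, with Fabp4, the adipocyte fatty acid binding protein, at 16522 and 18763 RPKM and Lpl, lipoprotein lipase, at 2452 and 2240. Brown adipocyte factors had 1 of 18 genes past 2-fold, Irf4, a transcription factor that fasting and cold induce in fat, which was lower at 51.5 and 11.6 RPKM in KO and stood at 5.57 and 8.12 in Control. In bulk tissue, fewer cells of a type and less RNA per cell cannot be told apart.

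Markers of other cell types varied. For comparison, 7.59% of all genes with a ratio were at least 2-fold higher in the KO at 7 d and 5.94% at least 2-fold lower. Of 20 macrophage markers with a ratio, 2 were at least 2-fold lower, at a median of -0.35 log2 and 0.18 in Control. Summed over all 25 joined macrophage markers, the KO means were 231.6 and 187.4 RPKM. All 8 antigen presentation genes of MHC class II were below 0, from -0.70 to -0.43. By edgeR in the deposited tables, 5 of the 8 were higher in KO than in Control at 22 °C and none at 7 d. The shares of all genes that were higher were 16.3% and 9.18%. Neutrophil and lymphocyte lists had 2 members each with a ratio, all at least 2-fold lower but with means under 3 RPKM, at medians of -1.26 and -1.50 in KO and -2.41 and 0.24 in Control. Endothelial markers had a median of -0.03, with Pecam1 at 27.4 and 29.7 RPKM. Of these 12, 1 was at least 2-fold lower, Cldn5, at 18.4 and 5.13 RPKM in KO and 11.2 and 4.41 in Control. Fibroblast markers had a median of -0.02. Of these 10, 1 was at least 2-fold lower, Gsn, at 697 and 263 RPKM in KO and 407 and 344 in Control. Erythroid genes lay between 0.69 and 0.79 in KO, at a median of 0.77, and at -0.45 in Control, and the globin pairs among them cannot be told apart by their reads. The Schwann cell list had 1 of 5 genes past 2-fold, S100b, at 0.987 and 5.09 RPKM, with Control means of 31.4 and 24.2. S100b was 26.8-fold below Control at 22 °C (adjusted p = 2.6e-70, edgeR) and 4.54-fold below at 7 d (adjusted p = 7.8e-21). It did not go with its list, as the 4 other genes lay below 0. The cell type that its transcript came from was not tested. The part of cell composition in the ratios of other lists was not tested.

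Clock genes, sampled at the same hour in each group, had 1 of 20 past 2-fold upward, Nfil3 at 4.42 and 9.48 RPKM, and 1 downward, the receptor gene Rora at 11.7 and 5.39 RPKM. Between the KO groups 7.59% of all genes with a ratio were past 2-fold upward and 5.94% downward. The deposited tables placed 12 of the 20 higher in KO than in Control at 22 °C and none lower, and 7 higher and 1 lower at 7 d. Across all genes, 16.3% were higher and 18.0% lower at 22 °C, and 9.18% and 6.14% at 7 d. Partners of HDAC3 stood within 2-fold between the KO groups. Tbl1x and Tbl1xr1, subunits of its corepressor complexes, had KO means of 43 and 32.8 RPKM and of 19.5 and 26.6 RPKM. Both were above Control at 22 °C (3.51-fold, adjusted p = 2.2e-42, and 2.73-fold, adjusted p = 4.8e-25, in the deposited table by edgeR) and at 7 d (2.63-fold, adjusted p = 1.0e-23, and 3.37-fold, adjusted p = 1.5e-34).

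Whether the KO changed more than Control from 22 °C to 7 d was tested for each gene. The deposited log2 fold change of KO over Control at 22 °C was subtracted from that at 7 d, which share no library, with an error rebuilt from each deposited p. A larger KO change was found for 1009 of 10591 tested genes (9.53%) and a smaller one for 560 (5.29%), at a Benjamini-Hochberg adjusted p under 0.05 from a two-sided normal test. Here "smaller" means a lower signed log2 change in the KO. The test is approximate, and genes with a deposited p above 0.9 in either table, such as Fasn, were left out of it, since no error could be rebuilt.

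Oxidative genes were often in the first group. The change was larger in KO for 61 of 71 tested oxidative phosphorylation genes and smaller for 1, larger for 41 of 73 mitochondrial ribosome genes and smaller for none, larger for 20 of 33 TCA cycle genes and smaller for 2, and larger for 19 of 31 fatty acid oxidation genes and smaller for 1. For the thermogenic list it was larger for 18 of 26 and smaller for 1. Ucp1 changed by 5.00 ± 0.56 log2 more in the KO than in Control (SE, adjusted p = 3.9e-16), Cox7a1 by 3.35 ± 0.27 (adjusted p = 1.3e-32) and Acaa2 by 2.69 ± 0.23 (adjusted p = 8.7e-28). The KO ratio is a part of each difference, and these genes have large KO ratios or were named by the smallest p of this test. Their p-values are therefore no independent evidence. Among the 6 genes with the smallest p in this direction, Kng2, a kininogen gene, had the largest difference, 5.23 ± 0.43 (adjusted p = 1.1e-30). Its KO means were 0.0973, 21.3 and 3.31 RPKM, the first resting on 2.27 reads per library, and it was still 8.41-fold below Control at 7 d (adjusted p = 8.4e-35, deposited table, edgeR). For the skeletal muscle markers, 8 of 21 could be tested and none passed, but their errors were wide, as for Acta1 at -0.62 ± 2.51 log2, so a difference of several fold would not have been detectable.

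Genes whose change was smaller in KO included lipogenic ones. The same limit applies to the p-values of single genes named here. De novo lipogenesis had 12 of 23 tested genes in this group and none in the other, and sterol synthesis 7 of 22 and none. Insig1 differed by -2.37 ± 0.29 log2 (adjusted p = 8.5e-14) and Slc25a1, which exports citrate for fatty acid synthesis, by -2.31 ± 0.30 (adjusted p = 8.8e-12), with KO means of 269 and 222 RPKM and Control means of 96 and 352. Mr1, an antigen-presenting molecule, differed by -2.84 ± 0.34 (adjusted p = 3.0e-14) and Hsd11b1, which regenerates active glucocorticoid, by -2.51 ± 0.34 (adjusted p = 5.1e-11). Of 23 tested immediate early genes, 3 had a smaller change in KO and none a larger one. Fos differed by -4.76 ± 1.44 (adjusted p = 0.0102), whereas the differences of Egr1 (-2.11 ± 1.34, adjusted p = 0.331) and Nr4a1 (adjusted p = 0.533) did not pass. For Elovl3 the difference was -0.38 ± 0.72 (adjusted p = 0.802).

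**Figure D4:**
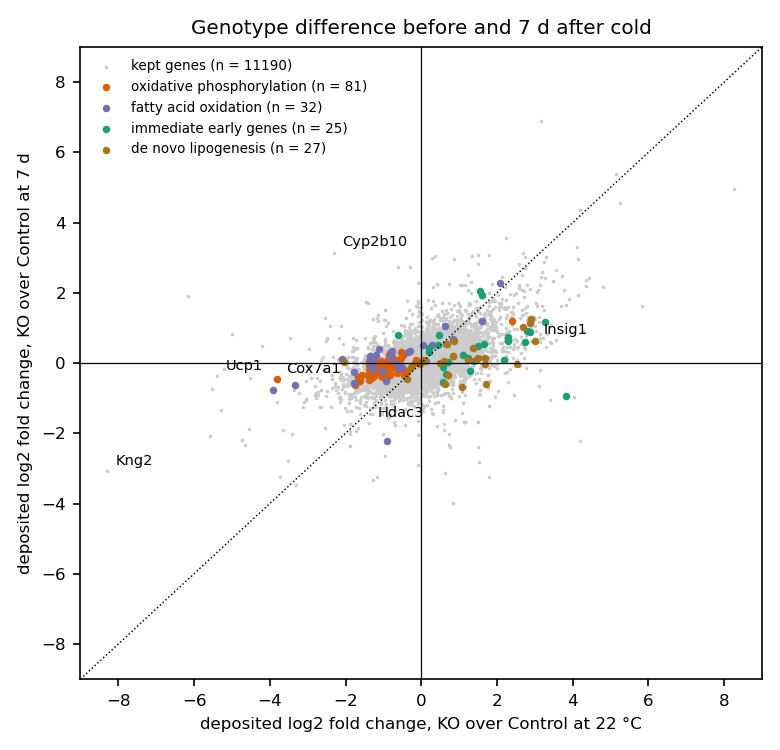
Deposited log2 fold change of KO over Control at 22 °C (x axis) and at 7 d of recovery (y axis) for 11190 genes, with the dotted diagonal marking an equal difference at both times and colours marking gene lists. Oxidative phosphorylation genes lie left of 0 at 22 °C, at a median of -1.06, and near 0 at 7 d, at -0.15, while Hdac3 lies below 0 at both times, at -1.37 and -1.71.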

How the data were processed

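RNA of interscapular brown fat was sequenced after removal of ribosomal RNA, in 24 libraries and 6 groups of 4, per the labels' protocols. STAR, featureCounts, edgeR and the mm9 build are named in the submitters' processing notes, with versions and settings not given in the sources used here. There are 5 tables that the authors deposited, holding 1 pairwise comparison each, with a log2 fold change, a p-value and adjusted p from edgeR, and the mean of each group, which was read as RPKM from its values. No value per library was used.

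The tables were joined by gene identifier, and ratios of the means were centred and called at 2-fold as the report describes. The genotype difference took the error of each deposited log2 fold change from its p-value (up to 0.9) and was adjusted by the Benjamini-Hochberg method over all tested genes. Its calculation was tested on simulated data. Python 3.11.15, pandas 2.3.3, numpy 2.4.6, scipy 1.17.1 and matplotlib 3.10.9 were used. Depth was 7110000 to 10400000 reads per KO library. Other centres, scalings, pseudocounts, filters, thresholds and error estimates were tried.

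The comparison, the 48 gene lists and the tests were chosen with earlier results of these data known. Genes were named by a rule: Hdac3 and Ucp1; the 12 per direction with the largest ratio and a mean of at least 10 RPKM; up to 4 per list with a mean of at least 5; and the 6 per sign with the smallest p for the genotype difference. Genes outside this rule were chosen after their values were seen: Acadm, Ndufb2, Fasn, Acta1, Ppargc1a, Esrrg, Adrb3, Lep, Otop1, Letmd1, Pparg, Pecam1, Srebf1, Me1, Lpl, Fabp4, Dgat2, Acaa1a, Cpt1a, Ndufa7, Ndufv2, Cox8a, Atp5g1, Atp5g2, Atp5g3, Atpif1, Pdk1, Nrf1, Slc2a3, Pygb, Klf6, Jund, Dusp1, Myc, Maff, Arc, Egr2, Egr3, Psmb8, Psmb10, Acly, Pgd, Atp5c1, Atp5j, Socs3 and Ctgf. Some genes that the rule names are not reported here.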

Additional observations from a re-analysis of the deposited data

Results flagged for a closer look

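The log2 change from 22 °C to 7 d of recovery differed between KO and Control for 98 of 194 tested genes chosen by the naming rule or after their values were seen, at an adjusted p under 0.05 in the approximate test built on the authors' deposited edgeR values. The 23 given here are those chosen as Ucp1, by the largest KO ratios or by the smallest p of this test. The KO ratio is itself a part of the tested difference. A difference in genes chosen by either route is therefore no independent evidence. Values are the KO change minus the Control change. Among thermogenic and oxidative genes these were Ucp1 (5.00), Fabp3 (4.71), Cox7a1 (3.35), Acot11 (3.15), Gyk (3.14), Acaa2 (2.69), Ldhb (2.47) and Sucla2 (2.15). Others of the 23 with a larger change in KO were Cyp2b10 (5.44), Kng2 (5.23), Cpn2, a carboxypeptidase N subunit (3.94), Pnldc1 (3.83), St3gal5 (2.90), Ppp1r3c (2.72) and Hsph1 (1.52). A smaller signed change in KO was found for Fos (-4.76), Mr1 (-2.84), the MHC class I gene H2-Q10 (-2.82), Hsd11b1 (-2.51), Igf1 (-2.47), Insig1 (-2.37), Slc25a1 (-2.31) and Btg2 (-2.14).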

How the results depend on the processing

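The counts of 849 higher and 664 lower genes became 612 and 328 with 1 RPKM added to both means, and 627 and 344 where only means of at least 5 RPKM in either group were kept. They became 1953 and 1717 at a 1.5-fold threshold, and 273 and 190 at 3-fold. The genotype difference counted 983 genes at an adjusted p under 0.01, against 1569 at 0.05. It counted 1609 genes when those with a deposited p above 0.9 took the other table's error, an alternative chosen after seeing the data, as was leaving out the muscle markers. Over 6 alternatives, 1239 of 1278 values of named genes stayed on the same side of the 2-fold threshold, 24 lost and 15 gained the call, and none of the called values changed sign. Of 276 list medians, 273 stayed, 2 lost and 1 gained. No paired analysis was possible because the deposited tables hold group means without a value per library, and for the same reason no library could be left out in turn. The spread between libraries behind each ratio of means is therefore unknown. At low counts, as for Fos at 7 d with 6.3 reads per library, the ratio rests on few reads.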

Other observations

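Some genes were listed by the 7 d table and not by the 22 °C table, and so had no joined ratio. Of the 35 with a KO mean of at least 1 RPKM at 7 d, several are known from striated muscle, among them Myoz2 (3.1 RPKM), Hrc (2.53), Xirp2 (2.33), Ankrd2 (2.07) and the calcium release channel Ryr1 (1.78). These were chosen after their values were seen. Of the 11 kept genes with a mean of 0 in one KO group, all were entries named as microRNAs, 2 at 0 at 22 °C and 9 at 0 at 7 d.

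The E-box CACGTG, bound by clock factors, was found in 6 of 27 promoters of clock genes (22.2%) and in 7.15% of all promoters, by the same search on both strands. Clock genes had a median KO ratio of -0.28 log2 and 0.12 in Control. Of 20 clock genes tested for the genotype difference, 4 had a smaller change in KO, among them Rora (adjusted p = 2.8e-07, from edgeR values), and none a larger one. Among all tested genes, 5.29% had a smaller change in KO and 9.53% a larger one.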
